A study of Homo sapiens with 6 samples.

Results

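The genes described here are 52 genes of the long arm of human chromosome 20 (20q), 17 from DNMT3B to ZHX3 on 20q11-q12 and 35 from SRSF6 to TAF4 on 20q13. They were listed by name with earlier results of these arrays known, and 6 other 20q genes (AURKA, UBE2C, NCOA3, E2F1, SLC2A10 and TFAP2C) were left out of the list. A member was measured where a probe set (a group of probes for one transcript) carried its symbol alone, which held for 48 of the 52, all 17 on 20q11-q12 and 31 on 20q13, out of 11963 genes measured in all. SULF2, ZNFX1, SPATA2 and UBE2V1 had no such probe set in the annotation used here and have no values. Where a gene had several probe sets, the brightest on average across the 6 arrays stood for it.

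The arrays came from cells labelled as HSC2, an established line of human oral squamous carcinoma. For 3 arrays the label names a stable transfectant of wild-type MALT1 cDNA, of full length. MALT1 is a paracaspase of NF-kappaB signalling. The other 3 are labelled mock and carried the vector alone. The labels name no promoter for the cDNA, do not say whether a group is 1 clone, and do not say whether its samples were separate cultures, so the spread within a group may be technical. Cells of both groups were kept in the same serum-containing medium with antibiotics.

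Chromosome 20q is among the chromosome arms that epithelial cancers most often carry in extra copies. Its genes have no common pathway: they encode splicing factors, chromatin regulators, ubiquitin ligases, membrane traffic proteins and enzymes, and share their place on the chromosome. Band 20q13.2, with ZNF217, BCAS1, CYP24A1 and PFDN4, is known as a core of amplification in breast cancer, and ZNF217, a zinc finger repressor, is its best studied gene. DNA copy number was not measured here.

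The arrays differed widely between groups. At a limma adjusted p under 0.05, 7917 of 22215 probe sets differed (35.6%). With 1 probe set per gene, 4828 of 11963 genes differed (40.4%), of which 2530 rose (21.1% of all) and 2298 fell (19.2%) in the arrays labelled MALT1 relative to mock. The median signal was 64.1 to 79.0 per array, and 25.6% to 33.3% of probe sets did not exceed 17.6. That value, called the dim level here, is the brightest reading of the spike-in trp controls, which match a bacterial gene, on any array. MALT1 itself read lower on the arrays labelled MALT1 in each of its 3 probe sets (difference −1.08 ± 0.12, −0.47 ± 0.08 and −0.28 ± 0.10 SE on the log2 scale), which goes against the labels, so the arrays are named by their labels throughout. Of 12 squamous epithelium markers, 10 were lower there and 0 higher, with a summed signal of 25974 to 28800 against 63838 to 72855. The squamous keratins KRT5 and KRT14 had mean signals of 1003 and 3486 against 5593 and 12270, while KRT13 was dim throughout. Of 13 luminal breast markers, 12 were higher and 0 lower, with a summed signal of 77752 to 85939 against 8905 to 9653, and 6 of the 13, KRT19, TFF1 and GREB1 included, were dim on all arrays labelled mock. Summed signals of 6 fibroblast markers were 118 to 244 against 121 to 183, and those of 5 leukocyte markers 32.8 to 95.5 against 30.7 to 53.7. The luminal and squamous markers moved with every difference given below, and their part in it was not tested.

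The 2 segments of 20q read differently. On 20q11-q12 most members were lower on the arrays labelled MALT1. On 20q13 the members were divided, with mostly lower members on the side of the centromere and mostly higher members around ZNF217. Of 17 measured members on 20q11-q12, 2 were called higher and 11 lower by the fit over all probe sets, beside 21.1% higher and 19.2% lower over all genes. The median member difference in log2(signal + 1), arrays labelled MALT1 minus mock, was −0.59 there, beside 0.08 over all genes. Median centring of the arrays lowers every difference by about 0.13, which left 1 member called higher and 11 lower on 20q11-q12. Of 31 measured members on 20q13, 8 were called higher and 9 lower, with a median difference of −0.19; after centring 6 were higher and 9 lower. Because the members were chosen with this comparison known, these counts and all member differences below are descriptions, not tests. Most members are bright genes, and among the 10299 genes above the dim level in at least 1 group 24.0% were higher and 22.1% lower.

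The separation of the groups can be read on single arrays. With each bright member set against its mean on the arrays labelled mock, the median over 16 members of 20q11-q12 was −0.65, −0.55 and −0.54 on the 3 arrays labelled MALT1. The same median over 30 members of 20q13 was −0.17, −0.14 and −0.13. On the arrays labelled mock these medians lay between −0.05 and 0.06. Each array labelled MALT1 thus gave the same order of the segments. The groups did not overlap in 14 of 17 members on 20q11-q12 (3 higher, 11 lower) and in 26 of 31 on 20q13 (12 higher, 14 lower), beside 54.6% of all genes (29.0% higher, 25.6% lower). The median SD of a bright member within a group was 0.096 on the log2 scale, and the median size of its difference between the groups was 0.58.

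**Figure D1:**
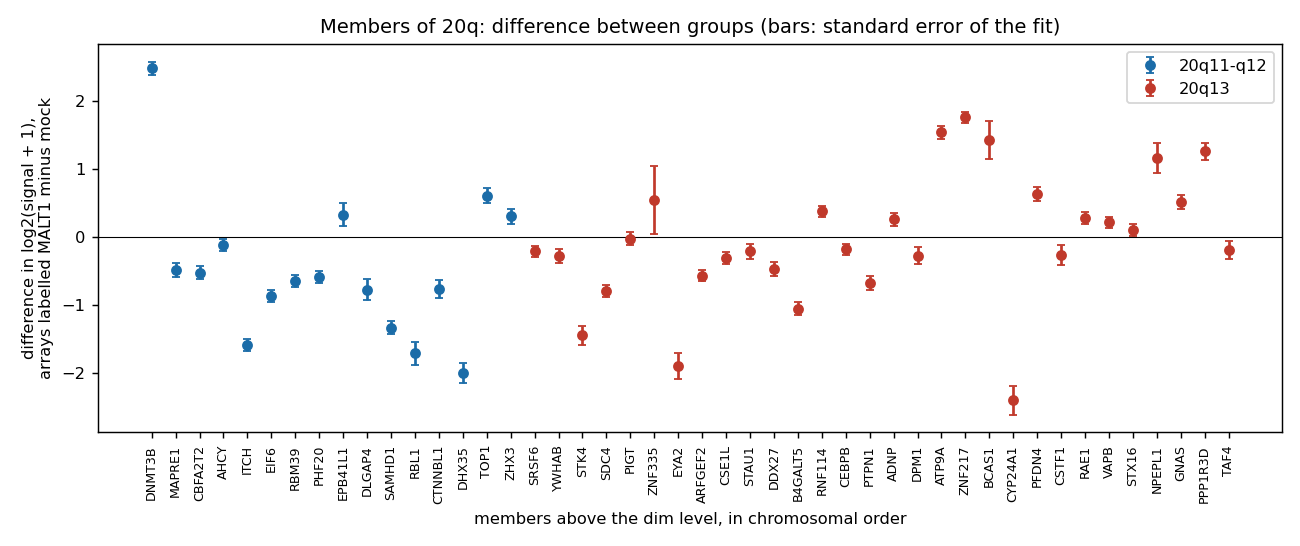
Difference in log2(signal + 1) between the arrays labelled MALT1 and mock (vertical axis) for the 46 members above the dim level in at least 1 group, in chromosomal order. Points are differences of the means of 3 arrays and bars the standard error of the fit. On 20q11-q12, 12 of the 16 points lie below 0; on 20q13, 13 of 30 lie above it, 12 of them from RNF114 on.

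Among the genes of 20q11-q12 that act on DNA and chromatin, DNMT3B stood apart from its neighbours. It encodes a de novo DNA methyltransferase, active in early development and raised in many tumours. DNMT3B read 591, 692 and 660 on the arrays labelled MALT1 and 111, 121 and 112 on those labelled mock (difference 2.48 ± 0.10 SE, 5.59-fold higher). It was the largest positive difference of all 48 members, and MAPRE1, the adjoining gene of the list, lay on the other side of 0. RBL1 encodes p107, a pocket protein of the retinoblastoma family that holds E2F factors in check. It read 250, 257 and 206 against 939, 740 and 676 (difference −1.71 ± 0.17 SE). TOP1, topoisomerase I, which relaxes supercoiled DNA, read 5549, 5489 and 5114 against 3138, 3670 and 3768 (difference 0.61 ± 0.11 SE, and 0.49 without a call after median centring). The groups of both genes lay fully apart, RBL1 below and TOP1 above. PHF20, a reader of methylated histones, differed by −0.59 and CBFA2T2, a corepressor of the ETO family, by −0.52, a call lost without MALT1 replicate 1 (−0.46 to −0.57 over the fits without 1 array). ZHX3, a zinc finger and homeobox repressor next to TOP1 on the list, differed by 0.31 and was not called.

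Genes of protein turnover, RNA handling and translation on 20q11-q12 were lower. ITCH, a ubiquitin ligase of the NEDD4 family that acts on JUNB and p63, read 545, 528 and 572 against 1541, 1700 and 1692 (difference −1.58 ± 0.09 SE, 3.00-fold lower). Its 3 probe sets gave −1.80, −1.58 and −1.38, all on the same side. DHX35, an RNA helicase found in spliceosomes, read 44.6, 34.5 and 48.6 against 174, 179 and 163 (difference −2.00 ± 0.15 SE), the lowest member of this segment. CTNNBL1, another splicing-associated protein, read 682, 724 and 810 against 1306, 1098 and 1350 (difference −0.76 ± 0.13 SE). The coactivator and splicing factor RBM39 differed by −0.64. EIF6, which keeps the large ribosomal subunit from joining too early, read 2365, 2305 and 2481 against 4256, 4188 and 4665 (difference −0.87 ± 0.09 SE). The groups of these 5 genes did not overlap, with the arrays labelled mock always the higher.

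The metabolic and cytoskeletal genes of 20q11-q12 were lower or had no call. SAMHD1, the dNTP hydrolase that restricts viral DNA synthesis and counts among interferon-induced genes, read 157, 143 and 159 against 380, 362 and 414 (difference −1.33 ± 0.10 SE, 2.51-fold lower). AHCY, which clears S-adenosylhomocysteine, read 2908, 2873 and 3215 against 3238, 3202 and 3307, and its groups overlapped (difference −0.12 ± 0.09 SE). SAMHD1 thus lay well apart between the groups and AHCY did not. MAPRE1, the microtubule plus-end protein EB1, differed by −0.48, a call lost without any 1 of 4 arrays (−0.54 to −0.42 over the fits without 1 array). The other MAPRE1 probe set was called lower too (−0.90). DLGAP4, a scaffold of the cell cortex, read 163, 173 and 224 against 340, 303 and 304 (difference −0.77 ± 0.15 SE), and its call was lost without MALT1 replicate 2 (difference −0.72) or without mock replicate 1 (difference −0.71). With the mean of its 3 probe sets, 2 of them not called, DLGAP4 differed by −0.42 without a call. EPB41L1, a band 4.1 protein linking membrane to actin, had overlapping groups, at 67.5 to 93.0 against 55.2 to 73.3. MYL9, a myosin light chain of smooth muscle and stromal cells, was dim on all 6 arrays, so no difference is read from it.

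Because the members share a chromosome arm rather than a pathway, the letters at their starts are shown for the highest and the lowest bright member of 20q11-q12 that had a window in the RefSeq promoter table (GRCh38.p14). Each sequence is the 250 bases before a start given in that table, 5′ to 3′. Some genes have more than 1 window there, 23 for 15 members of 20q11-q12, so a printed window need not be that of a gene's main start. Capitals mark exact matches, on either strand, to GGGCGG (the GC box), TATAAA (the TATA box) or CCAAT (the CCAAT box). The DNMT3B window is chr20:32779602-32779851 on the plus strand, and the DHX35 window is chr20:38962094-38962343, also on the plus strand.
DNMT3B: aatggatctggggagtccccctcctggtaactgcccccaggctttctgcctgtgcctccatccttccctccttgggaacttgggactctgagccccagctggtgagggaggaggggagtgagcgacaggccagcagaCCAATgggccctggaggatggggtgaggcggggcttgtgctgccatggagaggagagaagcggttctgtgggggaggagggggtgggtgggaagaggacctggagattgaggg
DHX35: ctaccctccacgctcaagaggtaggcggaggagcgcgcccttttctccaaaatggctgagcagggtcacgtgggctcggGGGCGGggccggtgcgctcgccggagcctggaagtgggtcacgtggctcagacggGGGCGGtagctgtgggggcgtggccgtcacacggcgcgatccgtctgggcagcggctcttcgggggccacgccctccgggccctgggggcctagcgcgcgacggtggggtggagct
The DNMT3B window held 1 CCAAT match and 0 GC boxes, and 64.0% of its bases were G or C. The DHX35 window held 2 GC boxes, and 72.8% of its bases were G or C. No matches overlapped in the printed windows.

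On 20q13 the members nearest the centromere were lower or not called. SRSF6, a serine-arginine splicing factor, read 2330, 2457 and 2384 against 2702, 2766 and 2833 (difference −0.21 ± 0.08 SE), a small gap without overlap. YWHAB, a 14-3-3 adaptor protein, differed by −0.28 without a call, but its 2 other probe sets were called lower (−0.40 and −0.44). PIGT, a subunit of the enzyme that attaches GPI anchors, differed by −0.02, with overlapping groups. STK4, the Hippo pathway kinase MST1, read 196, 188 and 146 against 454, 494 and 481 (difference −1.44 ± 0.14 SE, 2.71-fold lower), and its second probe set differed by −0.98. SDC4, the heparan sulphate proteoglycan syndecan-4 of focal adhesions, read 2078, 2276 and 2043 against 3684, 3586 and 3807 (difference −0.79 ± 0.09 SE). EYA2, a phosphatase and transcriptional coactivator of organ development, read 70.7, 87.7 and 77.6 against 246, 277 and 372 (difference −1.89 ± 0.19 SE, 3.71-fold lower). STK4, SDC4 and EYA2 were each lower on every array labelled MALT1. ZNF335, a zinc finger component of histone methyltransferase complexes, read 40.8, 61.4 and 52.5 against 63.9, 16.9 and 38.2 (difference 0.54 ± 0.50 SE), so its groups overlapped and its direction is not settled.

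Of the next members along 20q13, ARFGEF2, CSE1L, DDX27 and B4GALT5 were called lower and STAU1 was not. ARFGEF2, an exchange factor for ARF GTPases at the trans-Golgi network, read 1562, 1491 and 1622 against 2315, 2346 and 2290 (difference −0.57 ± 0.08 SE). Its mean over all 3 probe sets was 0.14, and 1 of the 3, near the dim level, read 5.59, 17.9 and 16.8 against 4.17, 4.25 and 4.87, higher where the brightest was lower. CSE1L, the export receptor that returns importin alpha to the cytoplasm, differed by −0.31, and the helicase DDX27 by −0.47. STAU1, a double-stranded RNA-binding protein, differed by −0.21 with overlapping groups in its brightest probe set. Of its 4 probe sets, all below 0, 2 others were called lower (−0.37 and −0.65). The call of CSE1L was lost without any 1 of the 6 arrays (−0.34 to −0.26), and that of DDX27 without any 1 of 4 (−0.54 to −0.43). On all 6 arrays, 2 of 4 CSE1L probe sets were called lower, the second at −0.48. The other DDX27 probe set was called lower too (−0.58). B4GALT5, the galactosyltransferase that makes lactosylceramide, read 932, 916 and 798 against 1837, 1731 and 1925 (difference −1.05 ± 0.10 SE, 2.08-fold lower), and both its probe sets were called lower.

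From RNF114 to DPM1 the members had differences of both signs, from −0.67 to 0.38. RNF114, a RING-type ubiquitin ligase, read 4504, 4666 and 4310 against 3498, 3459 and 3379 (difference 0.38 ± 0.08 SE), with its 3 probe sets at 0.37 to 0.50, although its call was lost without any 1 of 5 arrays (0.35 to 0.41) and after median centring (0.25). PTPN1, the tyrosine phosphatase PTP1B that acts on the insulin receptor, read 1144, 1107 and 1216 against 1704, 1858 and 1962 (difference −0.67 ± 0.10 SE). With the mean of its 3 probe sets, 2 of them dim on all arrays, PTPN1 differed by −0.45 without a call. RNF114 and PTPN1, only a few genes apart, thus lay on opposite sides of 0, each without overlap. CEBPB, a bZIP transcription factor of inflammation and differentiation, differed by −0.18, ADNP, a homeobox chromatin protein, by 0.26, and DPM1, which makes dolichol phosphate mannose, by −0.27; none of the 3 was called.

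The members around 20q13.2 held the highest differences among the measured members of 20q13. ATP9A, a phospholipid flippase of endosomes, read 1480, 1401 and 1511 against 498, 466 and 546 (difference 1.54 ± 0.10 SE, 2.91-fold higher). ZNF217 read 3938, 4124 and 3691 against 1163, 1162 and 1134 (difference 1.76 ± 0.08 SE, 3.39-fold higher). It was the largest positive difference among the measured members of 20q13, though not among all genes there. PFDN4, a subunit of the prefoldin chaperone that hands actin and tubulin to the chaperonin, read 10795, 11570 and 9685 against 6578, 6999 and 7044 (difference 0.63 ± 0.10 SE, and 0.50 without a call after median centring). These 3 genes were higher on each array labelled MALT1 than on any labelled mock, and the other probe sets of PFDN4 gave 1.12 and 2.10. The probe set at 2.10 read 19.8, 7.36 and 13.6 on the arrays labelled mock, so near the dim level that its size is uncertain. The other probe set of ATP9A was called higher too, but was dim on all arrays labelled mock. BCAS1, named for its amplification in breast cancer and also expressed in myelin-forming glia, read 40.2, 26.5 and 48.4 against 16.6, 10.3 and 13.5. It was dim on all arrays labelled mock, so it was at least 2.11-fold higher, and its call was lost without MALT1 replicate 1 (difference 1.37). CYP24A1, the mitochondrial enzyme that inactivates vitamin D hormone, lies between BCAS1 and PFDN4 and went the other way, at 31.1, 26.8 and 26.1 against 160, 190 and 116 (difference −2.40 ± 0.21 SE, 5.29-fold lower). It was the lowest difference of all 48 members.

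For 20q13 the windows of ZNF217, the highest bright member, and of STK4, the lowest with a window in the table, are printed in the same way. The ZNF217 window is chr20:53593840-53594089 on the minus strand and the STK4 window chr20:44966262-44966511 on the plus strand.
ZNF217: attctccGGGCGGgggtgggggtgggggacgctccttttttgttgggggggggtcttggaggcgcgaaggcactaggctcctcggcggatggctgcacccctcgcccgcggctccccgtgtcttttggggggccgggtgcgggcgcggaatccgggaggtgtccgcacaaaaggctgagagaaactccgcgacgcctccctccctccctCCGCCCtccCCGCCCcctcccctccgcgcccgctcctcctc
STK4: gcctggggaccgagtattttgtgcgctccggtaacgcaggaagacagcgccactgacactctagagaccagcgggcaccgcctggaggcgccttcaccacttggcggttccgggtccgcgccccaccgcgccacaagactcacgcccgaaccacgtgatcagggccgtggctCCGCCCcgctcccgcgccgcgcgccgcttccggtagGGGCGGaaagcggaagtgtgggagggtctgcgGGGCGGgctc
Each of the pair held 3 GC boxes and neither held a TATA or CCAAT match, so the printed windows did not differ in these counts. CYP24A1 and EYA2, which were lower than STK4, had no window to compare. A GC box stood in 57.9% of 38 windows of 27 measured members on 20q13 and in 56.5% of 23 windows of 15 measured members on 20q11-q12, beside 42.6% of all 35116 windows of this length. A TATA box stood in 15.8% and 4.35%, beside 10.7%, and a CCAAT box in 28.9% and 21.7%, beside 32.0%. These matches describe letters and show no binding.

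**Figure D2:**
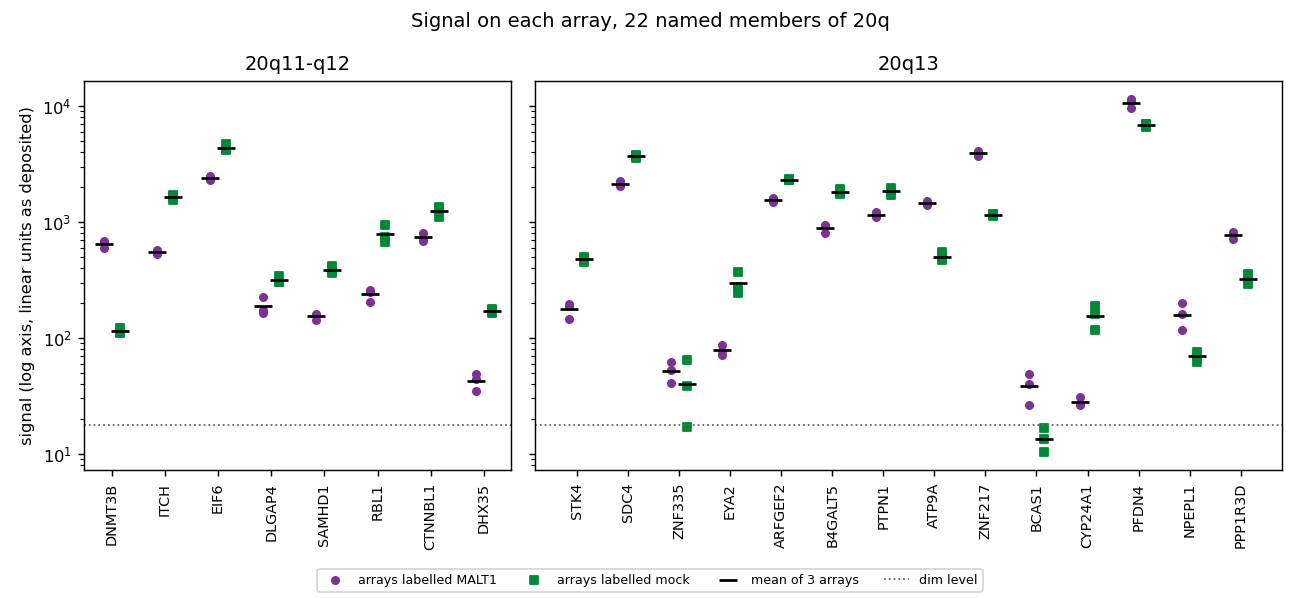
Signal on each array (vertical log axis, linear units as deposited) for the 22 members named with array values by rule, 8 on 20q11-q12 and 14 on 20q13. Circles are the 3 arrays labelled MALT1, squares the 3 labelled mock, dashes their means and the dotted line the dim level of 17.6. DNMT3B, ATP9A, ZNF217, BCAS1, PFDN4, NPEPL1 and PPP1R3D have every circle above every square, and of the 22 only ZNF335 overlaps.

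Of the measured members beyond PFDN4, NPEPL1, GNAS and PPP1R3D were called higher and the others were not called. RAE1, a messenger RNA export and spindle factor, differed by 0.28 without a call, although 1 of its 3 probe sets was called higher (0.53). VAPB, a tether of the endoplasmic reticulum, differed by 0.22 and was not called. VAPB depended on the probe set, since its other one read 130, 178 and 141 against 266, 455 and 488 (difference −1.39 ± 0.28 SE). The trans-Golgi syntaxin STX16 differed by 0.11, with its 2 other probe sets at −0.12 and −0.30. CSTF1, a cleavage stimulation factor subunit for messenger RNA 3′ ends, differed by −0.26 with overlapping groups, and TAF4, a TFIID subunit, by −0.19. NPEPL1, an aminopeptidase-like gene, read 160, 117 and 199 against 62.1, 75.1 and 70.2 (difference 1.16 ± 0.22 SE). PPP1R3D, which targets protein phosphatase 1 to glycogen, read 784, 708 and 816 against 357, 317 and 292 (difference 1.26 ± 0.12 SE, 2.39-fold higher). NPEPL1 and PPP1R3D had the largest positive differences among the members beyond PFDN4, each without overlap. PCK1, the gluconeogenic enzyme of liver and kidney, was likewise dim everywhere.

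GNAS, the imprinted locus of the stimulatory G protein alpha subunit with several promoters, was measured by 9 probe sets. The brightest read 12259, 12187 and 14059 against 8746, 9025 and 8943 (difference 0.52 ± 0.10 SE, 1.44-fold higher). With it, 7 of the 9 were called higher, beside 18.6% of all probe sets called higher. The 9 are readings of 1 gene, not independent observations. Of the 7 called, 6 differed by 0.49 to 0.85, and the other, picked out after its values were seen, read 2105, 2150 and 2056 against 200, 161 and 226 (difference 3.43 ± 0.15 SE). The GNAS probe sets thus had 1 direction among those called but not 1 size. The remaining 2 had overlapping groups. Which transcript each probe set detects was not analysed here.

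**Figure D3:**
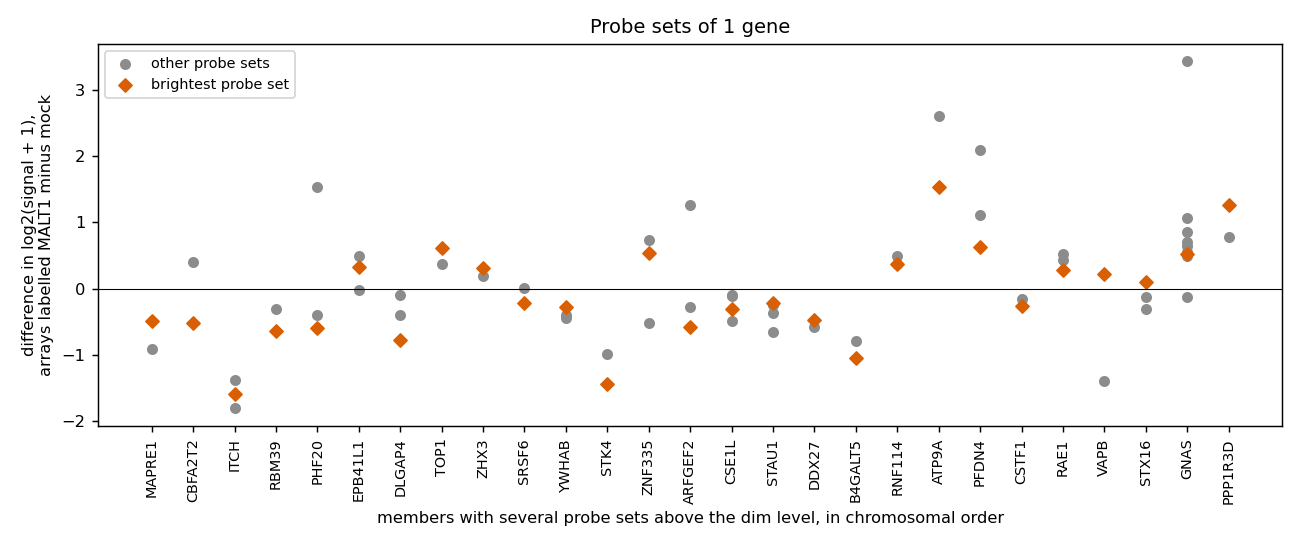
Difference in log2(signal + 1) between the arrays labelled MALT1 and mock (vertical axis) for each probe set above the dim level in at least 1 group, for the 27 members with several of them. Diamonds mark the brightest probe set, used elsewhere, and circles the others. All probe sets lie on 1 side of 0 in 18 of the 27 genes.

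Across the 27 members with several probe sets above the dim level, all of a gene's probe sets had the same sign in 18. The 9 exceptions were CBFA2T2, PHF20, EPB41L1, SRSF6, ZNF335, ARFGEF2, VAPB, STX16 and GNAS. For VAPB the opposing probe set was called in the other direction; for the other 8 it was not called. The brightest probe sets of ITCH, STAU1, DDX27 and GNAS carry the suffix x_at, used for probes that may also match other genes.

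Grouped by what they do, the members did not share 1 direction. Of 8 measured RNA processing genes, 0 were called higher and 4 lower, with a median difference of −0.37. Of 12 genes of transcription, chromatin and DNA, 3 were called higher (DNMT3B, TOP1 and ZNF217) and 4 lower (CBFA2T2, PHF20, RBL1 and EYA2), with a median of 0.04. Of 4 glycosylation and surface genes, 0 were higher and 2 lower, and of 4 metabolic enzymes 0 were higher and 2 lower. Signalling genes split evenly, with GNAS and PPP1R3D higher and STK4 and PTPN1 lower of 5. Among 5 genes of membrane traffic and nuclear export, ATP9A was higher and ARFGEF2 and CSE1L lower. Of 3 measured genes of protein turnover, RNF114 and NPEPL1 were higher and ITCH lower. The cytoskeletal genes had 0 higher and 2 lower of 4. With 21.1% higher and 19.2% lower over all genes, groups of this size carry no more than these counts.

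The other measured genes of 20q, which were not chosen for the list, were mostly lower or not called on 20q11-q12 and evenly divided on 20q13. Of 55 others on 20q11-q12, 27 fell (49.1%) and 3 rose, with a median difference of −0.43. Of 115 others on 20q13, 21 fell (18.3%) and 22 rose (19.1%), with a median difference of 0.03. The short arm, 20p, resembled 20q11-q12, with 48 of 113 genes lower (42.5%), 8 higher (7.08%) and a median of −0.42. Over the whole chromosome 35.05% of 331 genes were lower, where the 22 autosomes ranged from 8.78% to 38.8%. The difference between the segments itself was not tested.

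Gene by gene along the arm, members and others together, the signs of the differences were read in order. The 194 genes of 20q above the dim level in at least 1 group formed 80 runs of 1 sign. Whether such runs exceed what the shares of each sign would give was not tested. The longest run was 11 lower genes from RALY to PROCR, with AHCY and ITCH among them and a median of −0.57. A run of 8 lower genes from AAR2 to RBL1 took in DLGAP4 and SAMHD1, and its median was −0.98. The longest higher run was 7 genes from ZSWIM1 to SLC12A5, on the centromere side of 20q13, with 1 member (ZNF335) and a median of 0.54. A run of 6 higher genes from KCNG1 to BCAS1 held 3 members (ATP9A, ZNF217 and BCAS1), with a median of 1.16. A run of 4 higher genes from STX16 to NELFCD also held 3 (STX16, NPEPL1 and GNAS), with a median of 0.60. A change of balance lay between B4GALT5 and RNF114, a border picked after the values were seen. From DNMT3B to B4GALT5, 23 of 28 members and 72 of 104 genes in all lay below 0, with a median over the 104 of −0.39. In the 20q13 part of that stretch, from SRSF6, 11 of 12 members but only 28 of 47 genes lay below 0. The median over those 47 was −0.21, with 10 called higher and 18 lower. From RNF114 to TAF4, 12 of 18 members and 29 of 42 genes lay above 0, with a median over the 42 of 0.27. Over all 10299 genes above the dim level in at least 1 group, 5552 lay above 0, with a median of 0.07. After median centring 11 of the 18 members and 25 of the 42 genes lay above 0, with a median of 0.14. Beyond TAF4, from LSM14B to PCMTD2, where there are no members, 15 of 38 genes lay above 0, with a median of −0.18.

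**Figure D4:**
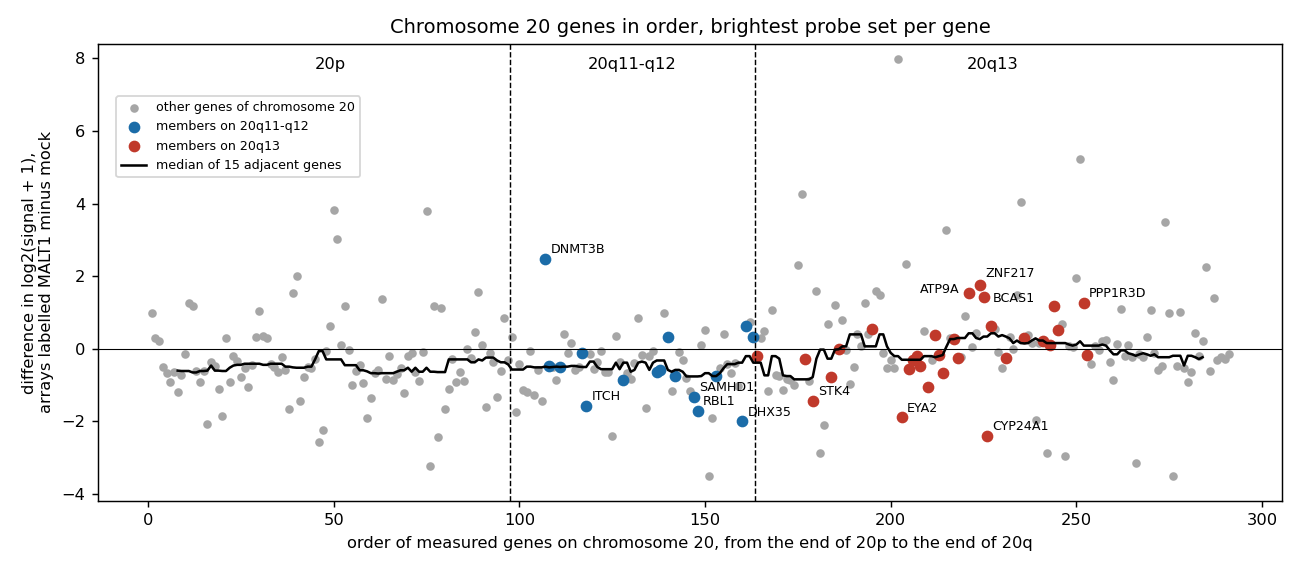
Difference in log2(signal + 1) between the arrays labelled MALT1 and mock (vertical axis) for each gene of chromosome 20 above the dim level in at least 1 group, in order from the end of 20p to the end of 20q (horizontal axis). Blue and red points are members, grey points other genes, and the line the median of 15 adjacent genes. The line stays between −0.77 and −0.21 over 20q11-q12 and between −0.85 and 0.42 over 20q13.

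The 5 most raised and 5 most lowered of the other called 20q genes, without the left-out genes and those dim on all arrays of a group, are given here. BMP7, a bone morphogenetic protein, rose 16.5-fold (limma adjusted p = 5.4e-05), EEF1A2, a translation elongation factor, 11.1-fold (adjusted p = 0.00026), ZMYND8, a chromatin reader, 5.06-fold (adjusted p = 7.8e-05) and ZNF512B 4.78-fold (adjusted p = 8.6e-05), all on 20q13 and on 3 of 3 arrays. The polarity gene PARD6B, also on 20q13, rose to 166, 187 and 173 from 20.9, 17.7 and 13.8 (adjusted p = 0.00018), the latter so near the dim level that no fold is given. The tyrosine kinase PTK6 fell to 15.95, 10.95 and 30.43 from 149, 255 and 243 (adjusted p = 0.0026), and SRC, another, fell to 43.2, 10.2 and 12.2 from 218, 237 and 182 (adjusted p = 0.0069). Each was dim on 2 of the 3 arrays labelled MALT1, so no size is given. On the log2 scale the cathepsin CTSZ fell by 2.96 (adjusted p = 0.00017), the endothelial protein C receptor PROCR fell by 2.40 (adjusted p = 6.8e-05) and the protease inhibitor SLPI fell by 2.12 (adjusted p = 0.00019). SRC and PROCR lie on 20q11-q12 and PTK6, CTSZ and SLPI on 20q13, so large changes of both signs were found on 20q13 among genes that were not members. Of the 55 others on 20q11-q12, 12 were called at least 2-fold lower and 0 at least 2-fold higher. Of the left-out genes, TFAP2C differed by 1.49, UBE2C by −0.98, AURKA by −0.54 and E2F1 by −0.13, and SLC2A10, dim on all arrays labelled mock, was at least 34.7-fold higher.

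**Figure D5:**
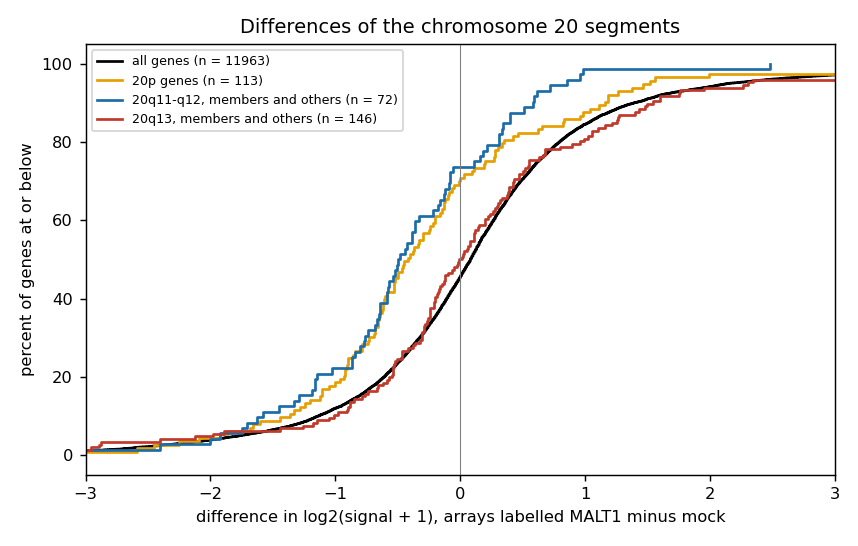
Cumulative percent of genes (vertical axis) by difference in log2(signal + 1) between the arrays labelled MALT1 and mock (horizontal axis, shown from −3 to 3), for all 11963 genes, 113 genes of 20p, 72 of 20q11-q12 and 146 of 20q13, members included. The curves of 20p and 20q11-q12 lie to the left of that of all genes through the middle range, and that of 20q13 runs close to it.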

How the data were processed

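The authors deposited 1 linear intensity value per probe set and array, already summarised over probes, by software not given in the sources used here. The mean of each array, with the top and bottom 2% of values trimmed, was 500.1 to 500.2, so the arrays had been scaled alike. The deposited values carry no detection call. Without the 62 control probe sets, 22215 remained and entered the fit unfiltered as log2(signal + 1). The fit used limma 3.58.1 (lmFit and eBayes) in R 4.3.3 on all 6 arrays with a term for group. Its two-sided p-values were Benjamini-Hochberg adjusted across the 22215. A gene was called at an adjusted p under 0.05. In the platform annotation 19064 probe sets had 1 symbol, 1043 several and 2108 none. Of 11963 genes named by the first kind, 11953 were placed by gene ID in the RefSeq table of GRCh38.p14, used for names and gene order because the array names no build. The members and lists were chosen with earlier results of these data known. Array values are given for the 8 members on 20q11-q12 and 14 on 20q13 with the largest differences above the dim level, and for other members where the text turns on them. The arrays' number limits the precision. Alternatives were the added constant, median centring, quantile normalization, leaving out dimmer probe sets, averaging a gene's probe sets, a replicate block and leaving out each array.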

Additional observations from a re-analysis of the deposited data

How the results depend on the processing

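The median member difference on 20q11-q12 was −0.59. It moved beyond the spread between arrays to −0.42 with the mean of a gene's probe sets and to −0.72 with median centring. On 20q13 the median was −0.19 and moved beyond that spread to −0.31 with median centring and to −0.15 without mock replicate 3. Leaving out each array in turn gave −0.61 to −0.55 and −0.21 to −0.15. Centring moved the median of all probe sets from 0.08 to −0.05. Counts of called members, of other 20q genes and of 20p genes stayed within 1.5 times under every alternative. Of the 30 members called, 23 were called in each fit without 1 array; the others were MAPRE1, CBFA2T2, DLGAP4, CSE1L, DDX27, RNF114 and BCAS1. Centring ended the calls of TOP1, RNF114 and PFDN4. With the mean of a gene's probe sets ARFGEF2 reversed to 0.14, and DLGAP4 (−0.42) and PTPN1 (−0.45) lost their calls. Deviations of same-numbered arrays had correlations of 0.059, −0.0025 and 0.061, beside −0.082 to 0.048 for arrays of different number. All were small, so the numbers were not taken as pairs, although 0.059 and 0.061 were the highest. With the replicate number as a block, 5808 probe sets, 11 members on 20q11-q12, 12 on 20q13, 58 other 20q genes and 39 on 20p were called, and both medians were unchanged at −0.59 and −0.19. The block ended 7 member calls, those of DLGAP4, TOP1, CSE1L, DDX27, RNF114, NPEPL1 and GNAS. Signals at or below 17.6 give bounds only.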
